A study of Homo sapiens with 7 samples.

Results

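The genes described here encode 10 parts of the transforming growth factor beta (TGF-beta) pathway, whose SMAD complexes are known to work with RUNX proteins: the ligand TGFB1, the receptors TGFBR1 and TGFBR2, the signal carriers SMAD2, SMAD3 and SMAD4, and the inhibitors SMAD7, SKI, SKIL and LDLRAD4. They are 10 of 19974 protein-coding genes in the RefSeq table. RUNX2, a Runt-family DNA-binding factor with a well-known part in bone formation, and H3K27ac, a histone acetylation found at active enhancers and promoters, had been mapped by chromatin immunoprecipitation and sequencing (ChIP-seq) in 2 cell lines of T-cell acute lymphoblastic leukemia (T-ALL). The intervals described are those lying wholly inside the RefSeq span of a member plus 50 kb on each side, here called its window. These windows held 134 of 42911 RUNX2 peaks of KARPAS-45 and 61 of 21027 of PER-117. They held 142 of 63265 H3K27ac regions in KARPAS-45 and 181 of 53263 in PER-117. The genes were picked by pathway role, with earlier results of these data known, and the intervals by position. The values below, with those of all genes beside them, are therefore a description and not a test.

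KARPAS-45 is a T-ALL line with a KMT2A rearrangement and was grown in RPMI-1640 with 20% fetal bovine serum. PER-117, the other T-ALL line, was grown in the same medium with 10% serum. The labels name no treatment of either line. For both, cells were fixed in 1.1% formaldehyde for 10 min, chromatin was sonicated to between 200 and 300 bp, and 10 ug of a RUNX2 antibody (D1H7) or an H3K27ac antibody (ab4729) was used. There was 1 library per line and antibody, so the lines could not be tested against each other, and line, read depth and calling threshold cannot be told apart. Of the 7 libraries, 4 had a peak list, and the 3 inputs were not analysed here. Read depth is not part of the lists, so the absence of a peak means only that none was called. The KARPAS-45 H3K27ac list covered 166.7 Mb and held 135 regions of 50 kb or more, while the PER-117 list covered 76.2 Mb and held 0. The lowest −log10 q was 0.431 in the KARPAS-45 H3K27ac list and 1.0104 in that of PER-117, and the widest regions were 367982 and 38650 bp. The lists may have been called with different settings, so widths and covered lengths of H3K27ac below cannot be told apart from the calling. Fold enrichment is the authors' linear ratio for each peak, and it ranks peaks within 1 list only. Of 8 T-lineage marker genes (CD3D, CD3E, CD3G, CD247, CD2, CD5, CD7 and LCK), KARPAS-45 had 8 and PER-117 had 7 with H3K27ac within 1 kb of a gene start, and CD5 was the gene lacking it in PER-117. Of 3 B-lineage markers 1 had it in each line (CD79A), of 4 myeloid markers 0 and 1 (CEBPE), of 3 erythroid markers 0 and 0, and of 3 non-blood markers 1 (COL1A1) and 0. Over all protein-coding genes the shares with such a mark were 59.9% in KARPAS-45 and 54.7% in PER-117.

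In the pathway, a TGF-beta dimer brings the type II receptor TGFBR2 and the type I receptor TGFBR1 together, and TGFBR1 then phosphorylates SMAD2 and SMAD3. These join SMAD4, enter the nucleus and bind DNA weakly at a short CAGAC box, so partner factors such as the RUNX proteins help to choose the target genes. SMAD7 blocks the receptor, SKI and SKIL recruit corepressors to SMAD complexes, and LDLRAD4 keeps receptor SMADs away from the receptor at membranes. In T cells TGF-beta restrains proliferation and cytokine production and steers differentiation, and RUNX proteins bind the DNA core letters TGTGGT or TGCGGT.

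The DNA before the member starts that RUNX2 peaks of both lines overlapped is shown first, because some of the peaks described below reach into it. RefSeq (GRCh38.p14) start windows were available for 9 of the 10 members, and SKI is named only. Of 32 windows of 250 bases directly upstream of a member start, 5 overlapped a RUNX2 peak in both lines, and the RUNX letters TGTGGT or TGCGGT, on either strand, occurred in 4 of these 5. Among all 22132 such windows of protein-coding genes, 15.6% held either motif (9.36% TGTGGT and 6.82% TGCGGT), and among the 4240 that overlapped a RUNX2 peak in both lines 24.2% did. Where the summits of both lines lay inside the window, as in the SMAD3 and SMAD7 windows shown here, the share was 35.4% of 1752. The SMAD box CAGAC, on either strand, occurred in 14 of the 32 member windows and in 37.3% of all windows. A match is a description of letters and not a mapped site. The 4 windows below are written 5′ to 3′ on the strand of the gene, with the RUNX letters in capitals (ACCACA is TGTGGT read on the opposite strand).

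SMAD3, start at 67098679 of chromosome 15 (chr15:67098429-67098678, plus strand): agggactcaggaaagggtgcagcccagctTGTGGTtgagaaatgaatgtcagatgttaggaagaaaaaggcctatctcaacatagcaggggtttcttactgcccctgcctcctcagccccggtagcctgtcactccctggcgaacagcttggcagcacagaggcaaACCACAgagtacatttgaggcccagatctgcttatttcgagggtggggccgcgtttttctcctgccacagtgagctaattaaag
SMAD4 (chr18:51029963-51030212, plus strand): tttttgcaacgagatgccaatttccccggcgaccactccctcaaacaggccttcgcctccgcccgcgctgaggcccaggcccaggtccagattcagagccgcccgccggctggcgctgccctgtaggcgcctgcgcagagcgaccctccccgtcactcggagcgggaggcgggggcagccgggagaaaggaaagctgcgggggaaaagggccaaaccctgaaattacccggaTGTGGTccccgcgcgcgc
SMAD7, start at 48949333 of chromosome 18 (chr18:48949334-48949583, minus strand): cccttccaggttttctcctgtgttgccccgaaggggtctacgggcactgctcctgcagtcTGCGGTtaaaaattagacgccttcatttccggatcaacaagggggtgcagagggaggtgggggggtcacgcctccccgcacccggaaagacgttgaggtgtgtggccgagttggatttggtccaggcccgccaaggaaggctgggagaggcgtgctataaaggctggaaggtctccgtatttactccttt
TGFB1 (chr19:41353923-41354172, minus strand): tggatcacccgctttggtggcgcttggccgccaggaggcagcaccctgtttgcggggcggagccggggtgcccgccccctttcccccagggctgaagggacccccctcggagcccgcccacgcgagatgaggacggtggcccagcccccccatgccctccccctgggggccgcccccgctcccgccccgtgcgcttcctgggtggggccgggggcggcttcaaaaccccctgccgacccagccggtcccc

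The SMAD3 window held 2 matches, 221 and 84 bases upstream of the start, at 82 and 55 bp from the KARPAS-45 summit and 52 and 85 bp from the PER-117 summit. The SMAD4 match lay 18 bases upstream, 57 bp from the KARPAS-45 summit and 24 bp from the PER-117 summit. In SMAD7 the match lay 190 bases upstream, 10 and 100 bp from the summits, and its first bases overlap a CAGAC box on the opposite strand. The TGFB1 window held neither RUNX nor SMAD letters, although a peak of both lines overlapped it. Its summits, 252 bp upstream in KARPAS-45 and 256 bp in PER-117, lay just beyond the window. The rest of that peak was not searched. The remaining window with a peak of both lines was that of LDLRAD4 at 13611764, where TGTGGT lay 63 bases upstream of the start but 734 and 735 bp from the summits. A further 11 member windows overlapped a RUNX2 peak in KARPAS-45 only. Of these, 1 held RUNX letters, a TGCGGT before the TGFBR1 start at 99105575, beside 14.2% of all 4148 windows of that kind. The 11 windows belong to TGFBR1, SMAD2, SMAD3, SKIL and LDLRAD4 only, and several lie under 1 peak, so they are not separate cases.

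Every member window held RUNX2 peaks and H3K27ac in both lines, and the shares of all genes were also high. A RUNX2 peak lay in the windows of 10 members in each line, where the shares of all protein-coding genes were 85.3% for KARPAS-45 and 73.0% for PER-117. H3K27ac regions lay in the windows of 10 members in each line, against 82.8% and 80.8%. The member windows were longer, with a median of 168.4 kb beside 124.2 kb over all genes, which leaves more room for an interval. Within 1 kb of a start, 9 members carried RUNX2 in KARPAS-45 (48.4% of all genes) and 7 in PER-117 (32.4%). A start here was any listed start, or either span end for SKI and other genes without a listed start. TGFB1, SMAD2, SMAD3, SMAD4, SMAD7 and LDLRAD4, 6 members, carried it in both lines, as did 29.1% of all genes. TGFBR1, SKI and SKIL, 3 members, carried it in KARPAS-45 only (19.3%), and TGFBR2 in PER-117 only (3.34%). H3K27ac was within 1 kb of a start in 10 members in each line, against the 59.9% and 54.7% of all genes given above. When only the widest KARPAS-45 regions were kept, until they covered as much as all PER-117 regions, 5 members had it in KARPAS-45. Members had up to 9 listed starts, which gives a gene more positions at which a peak can count. With only the outermost listed start of each gene, or with either end of the span, PER-117 had 4 members with RUNX2 at the start and KARPAS-45 had 7. Shares of all genes were not computed for these definitions or for the shortened list, so the shares above are not their background.

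Most member windows stood above the median of all genes, at widely different levels. For RUNX2 peaks per 100 kb this held for 9 members in KARPAS-45 against 8 in PER-117, and for H3K27ac coverage for 8 in each line. The median over members was 5.61 RUNX2 peaks per 100 kb in KARPAS-45 against 3.17 in PER-117, beside 2.59 and 1.08 over all genes. H3K27ac covered a median of 17.1% of the member windows in KARPAS-45 and 10.4% in PER-117, beside 6.78% and 3.26% over all genes. A region reaching past a window edge added nothing to that window, which can lower the coverage of short windows in broad regions. SMAD3 had the highest peak density of the members in KARPAS-45 (11.8 per 100 kb) and TGFBR1 in PER-117 (6.64), while SMAD4 had the lowest in both (1.29 and 0.646). KARPAS-45 had more peaks in 8 windows. In the other 2, TGFBR1 (10 and 10) and TGFBR2 (7 and 8), PER-117 had as many or more, as in 24.1% of all windows with a peak. Both depended on the setting. With flanks of 25 kb, TGFBR1 had 7 KARPAS-45 peaks against 4 PER-117 peaks. At a RUNX2 −log10 q of 10 and above, TGFBR2 had 3 against 0, while TGFB1 turned the other way, with 4 against 5. Under the other alternatives run, PER-117 again had as many or more at TGFBR1 and TGFBR2. PER-117 had more acetylated bases in 4 windows, those of TGFBR1, TGFBR2, SMAD3 and SMAD7, as in 21.7% of all windows with any. With the shortened KARPAS-45 list it was 7, with TGFB1, SMAD4 and SKIL added, and that list can only lower the KARPAS-45 values. The share of all windows was not computed with that list.

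**Figure D1:**
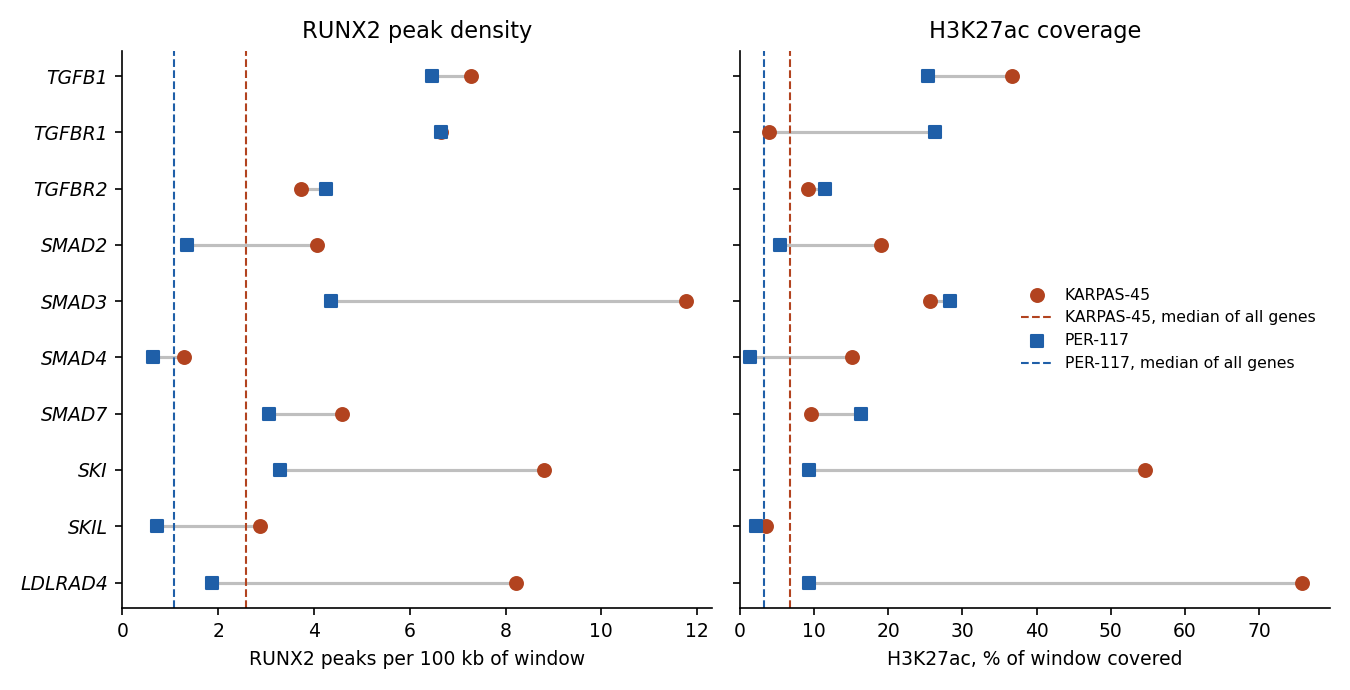
RUNX2 peaks per 100 kb (left) and percent of the window covered by H3K27ac (right) for each of the 10 genes, with 1 point per line and library, and dashed lines at the medians over all protein-coding genes. SKI and LDLRAD4 stand far to the right in KARPAS-45 for H3K27ac, while TGFBR1 is the gene where PER-117 stands furthest to the right of KARPAS-45.

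Most PER-117 peaks in the windows had a KARPAS-45 partner, while most KARPAS-45 peaks had none in PER-117. Of the KARPAS-45 peaks in the windows, 37 of 134 (27.6%, Wilson 95% interval 20.7 to 35.7) overlapped a PER-117 peak, beside 31.2% of the whole list. Of the PER-117 peaks, 37 of 61 (60.7%, 48.1 to 71.9) overlapped a KARPAS-45 peak, beside 63.6%. These intervals cover counting error only. Summits lay inside H3K27ac of the same line at 98 KARPAS-45 peaks (73.1%, 65.1 to 79.9), beside 65.2% of the list, and at 46 PER-117 peaks (75.4%, 63.3 to 84.5), beside 75.6%. In H3K27ac of the other line lay 51 KARPAS-45 summits (38.1%, beside 42.2%) and 39 PER-117 summits (63.9%, beside 62.5%). These shares are near those of the whole lists. The median fold enrichment was 11.7 for shared and 5.58 for unshared peaks in KARPAS-45, and 6.40 and 4.86 in PER-117. These medians were not computed over the whole lists, so whether the contrast differs from that of other genes was not tested. Acetylated shares of unshared peaks alone were not computed over the whole lists either. Counts of acetylated unshared peaks by gene below thus stand without a background. The strongest peak of the window was the same site in both lines for 5 members, TGFB1, TGFBR1, SMAD4, SMAD7 and LDLRAD4, beside 44.2% of the windows of all genes with a peak in both lines.

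**Figure D2:**
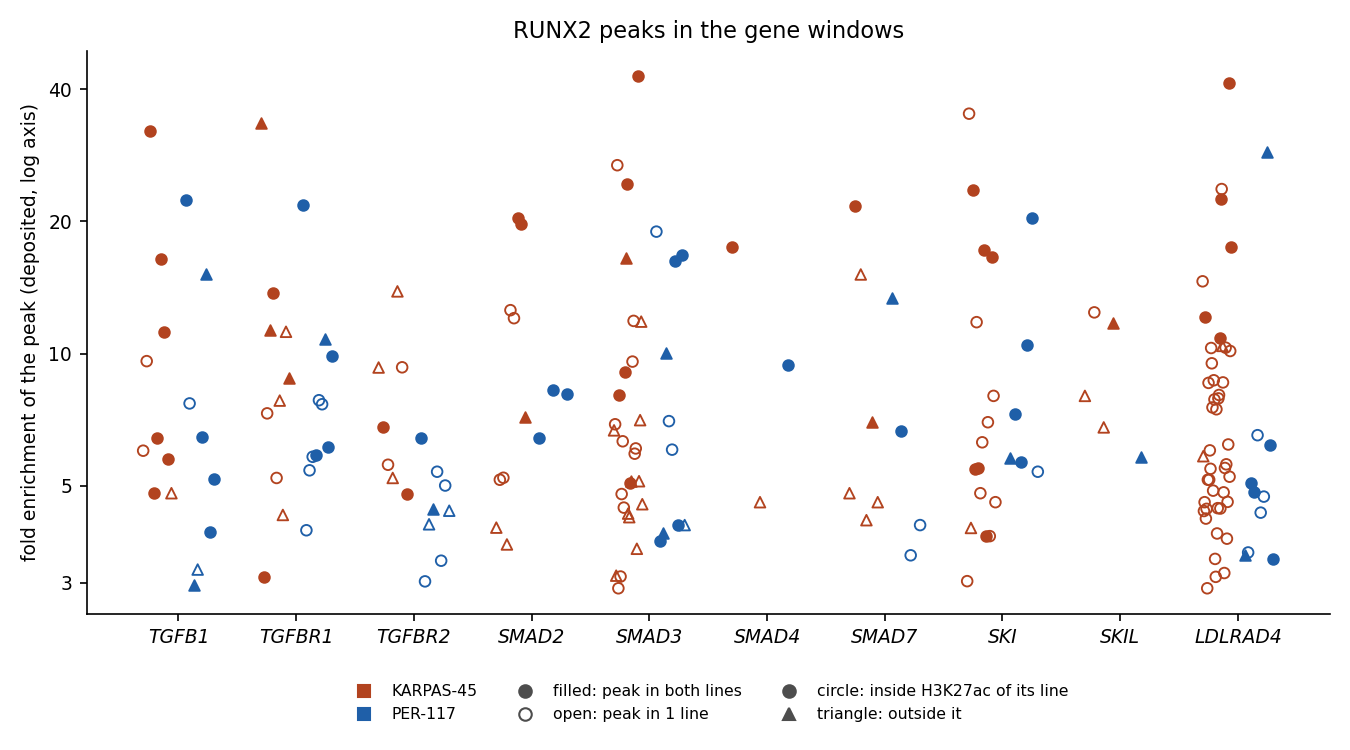
Fold enrichment, on a log axis, of each RUNX2 peak in the 10 windows, by gene and line, with peaks in genome order within a column. Filled symbols are peaks found in both lines and circles are summits inside H3K27ac of the same line; the highest values are 42.8 at SMAD3 in KARPAS-45 and 28.9 at LDLRAD4 in PER-117, both filled.

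TGFB1, the ligand (chromosome 19, 41330323 to 41353922, minus strand), had RUNX2 at its start in both lines. The start peak summit lay 252 bp upstream in KARPAS-45 and 256 bp in PER-117, with fold enrichments of 16.4 and 15.2, which put the peaks in the top 10.8% and 7.11% of their lists when ranked from the strongest. The same summits lay 243 and 239 bp from an end of B9D2, the neighbouring gene on that side. A second shared peak lay 1205 bp downstream in KARPAS-45 and 1214 bp in PER-117, with 6.41 and 6.47. The strongest peak of the window in each line lay elsewhere, 222 and 192 bp from an end of CCDC97, a neighbouring gene, with 32.1 and 22.4. Of the 9 KARPAS-45 and 8 PER-117 peaks, 6 were shared in each. The strongest peak without a partner had 9.61 in KARPAS-45, 585 bp from an end of HNRNPUL1, and 7.70 in PER-117. An H3K27ac region of 11.7 kb spanned the start in KARPAS-45. In PER-117 a region of 4.18 kb ended 11 bp short of the start peak summit, so this summit counted as outside H3K27ac in that line. The peaks between TGFB1 and B9D2 thus had summits 4 bp apart in the lists, with acetylated chromatin over them or next to them.

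TGFBR1, the type I receptor kinase (chromosome 9, 99103647 to 99154192, plus strand), held 10 peaks in each line, 5 of them shared in each. Its start carried RUNX2 in KARPAS-45 only, with a fold enrichment of 7.30 at 66 bp upstream of the start at 99105083. The strongest site in both lines lay 45.5 kb upstream, inside the span of COL15A1, with 33.5 in KARPAS-45 (top 1.81%) and 21.8 in PER-117 (top 2.43%). That summit was inside a PER-117 H3K27ac region of 4.92 kb, and it lay 748 bp from the nearest region in KARPAS-45. Between this site and the gene, PER-117 had 2 long H3K27ac regions of 11.3 and 10.2 kb that held 4 and 2 RUNX2 peaks. KARPAS-45 had 1 peak there, with 3.10. The strongest peaks found in 1 line had 11.2 in KARPAS-45, 13.7 kb past the gene and outside H3K27ac, and 7.83 in PER-117, 10.6 kb upstream. All 5 PER-117 peaks without a partner were acetylated in PER-117 and in no case in KARPAS-45. H3K27ac covered 5.995 kb of the window in KARPAS-45 (3.98%) and 39.6 kb in PER-117 (26.3%), of which 4.43 kb were common. The acetylated share was thus 6.61 times as high in PER-117, although the PER-117 list as a whole was the shorter one.

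**Figure D3:**
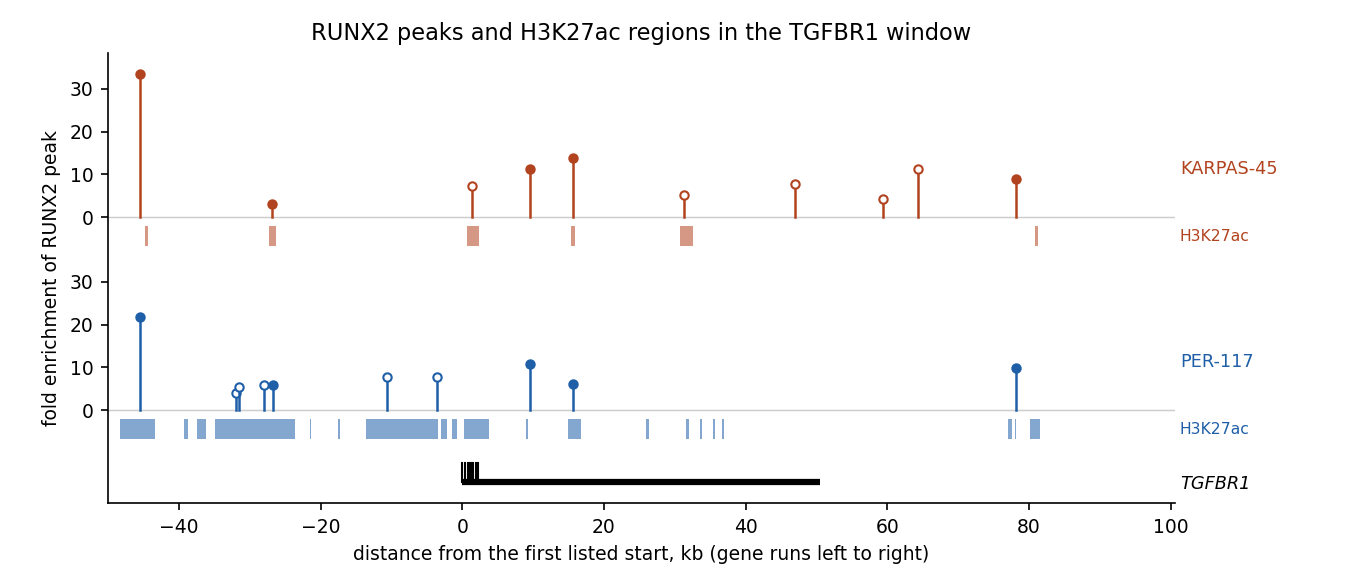
Map of the TGFBR1 window, with RUNX2 summits drawn as stems as high as the fold enrichment (filled heads for peaks in both lines, open for 1 line) and H3K27ac regions as boxes under them, against the distance in kb from the first listed start; the black bar is the gene and its ticks are listed starts. PER-117 shows boxes of 11.3 and 10.2 kb to the left of the gene, where KARPAS-45 shows 1 short box.

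TGFBR2, the ligand-binding type II receptor (chromosome 3, 30606356 to 30694142, plus strand), was the member with RUNX2 at its start in PER-117 only. That peak was weak, with a fold enrichment of 3.02 at 721 bp downstream of the start at 30606601, and 97.0% of its list ranked at or above it. It lay 398 bp from an end of another gene in the RefSeq table. Of the 7 KARPAS-45 and 8 PER-117 peaks, 2 were shared. The shared peak nearest to the gene lay 3219 bp upstream in KARPAS-45 and 3184 bp in PER-117, with 6.82 and 6.40, and was acetylated in both lines. It was the strongest PER-117 peak of the window. The strongest KARPAS-45 peak had 13.9, lay 34.1 kb downstream of the start inside the gene, and was found in KARPAS-45 only and outside H3K27ac of both lines. The strongest PER-117 peak without a partner had 5.38, 52.0 kb downstream. H3K27ac covered 17.3 kb in KARPAS-45 against 21.6 kb in PER-117, and 7.40 kb of this was common. In PER-117 the longest regions, of 7.38 and 5.57 kb, lay inside the gene and held 3 RUNX2 peaks, none of them called in KARPAS-45.

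SMAD2, a receptor-activated SMAD (chromosome 18, 47808957 to 47930872, minus strand), had 9 peaks in KARPAS-45 against 3 in PER-117, and all 3 were shared. Upstream of the gene, the shared peaks had 20.4 and 6.40 at 1109 and 1085 bp, 19.7 and 8.27 at 6345 and 6338 bp, and 7.17 and 8.09 at 22.8 kb. The first of these counts as a peak at the start in both lines, since its edge is within 1 kb. KARPAS-45 had a further peak with 12.0 at 417 bp upstream. The strongest peak found in 1 line had 12.6, 24.9 kb downstream inside the gene, and was acetylated in KARPAS-45 only. In KARPAS-45 an H3K27ac region of 18.5 kb covered the start and the first 2 upstream sites. In PER-117 the start lay in a region of 3.86 kb and the second site in another of 2.99 kb. Within the gene body no RUNX2 peak was called in PER-117, against 4 away from the start in KARPAS-45. The window was covered to 42.2 kb in KARPAS-45 against 12.0 kb in PER-117, and 95.3% of the PER-117 bases were also covered in KARPAS-45.

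SMAD3, the receptor-activated SMAD that binds DNA directly (chromosome 15, 67065602 to 67195169, plus strand), had 27 RUNX2 peaks in KARPAS-45 against 10 in PER-117, 6 of them shared in each. The strongest member peak of KARPAS-45 was here, with 42.8 (top 0.729% of the list). It lay inside the gene, 19.4 kb downstream of the last listed start, and had 16.7 in PER-117. Of the starts, the internal one at 67098679 carried the strongest start peak, with 24.3 at 136 bp upstream in KARPAS-45 and 16.2 at 166 bp in PER-117. This is the window with 2 TGTGGT matches shown above. The outermost start at 67065602 had a peak of 8.03 at 1249 bp upstream and one of 3.10 at 66 bp downstream in KARPAS-45. In PER-117 the first of these had a partner with 3.75 whose edge was beyond 1 kb.

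Upstream of SMAD3 each line had a strong peak of its own. In KARPAS-45 it had 26.9 (top 3.43%), 14.6 kb upstream of the outermost start, and was acetylated in both lines. In PER-117 it had 19.0 (top 3.79%), 26.2 kb upstream, and was the strongest PER-117 peak of the window. That summit lay in a PER-117 H3K27ac region of 6.35 kb and outside H3K27ac in KARPAS-45. H3K27ac covered similar lengths, 58.7 kb in 25 regions in KARPAS-45 and 64.9 kb in 54 shorter regions in PER-117, but only 27.8 kb were common. With regions of −log10 q of 2 or more the order of the lines turned, and PER-117 had 3.86 kb less than KARPAS-45. The unshared KARPAS-45 peaks were 21, of which 11 were acetylated in KARPAS-45, and 7 were acetylated in neither line.

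**Figure D4:**
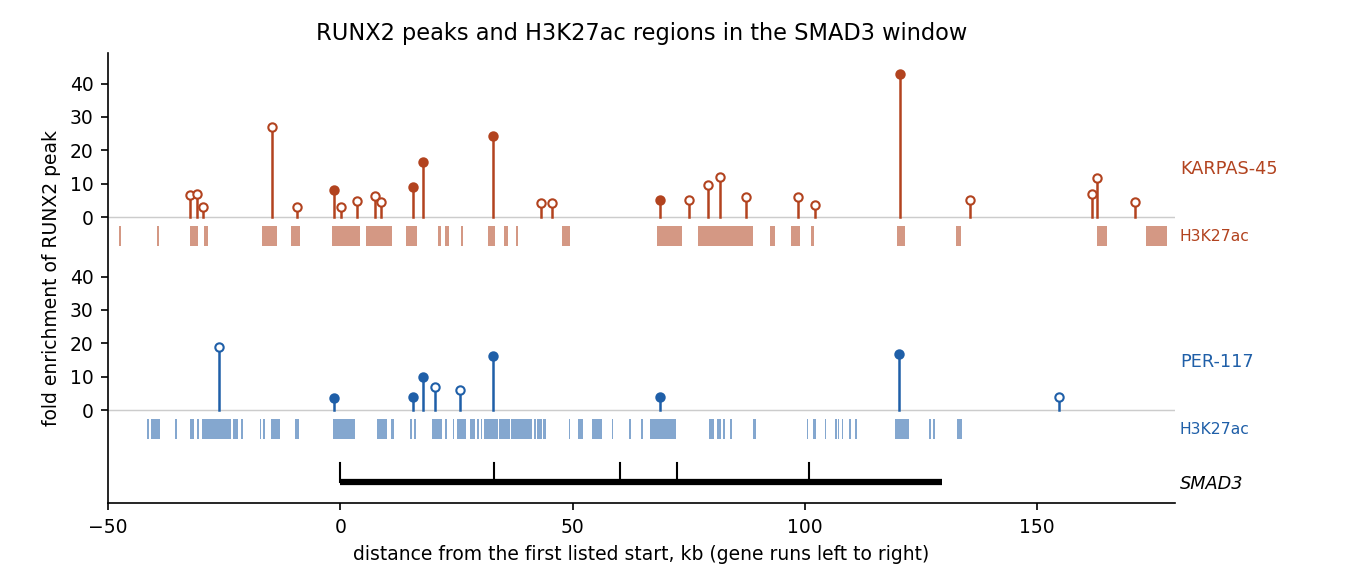
Map of the SMAD3 window, drawn as for TGFBR1, with fold enrichment as stem height and distance in kb from the first listed start. Filled stems of 42.8 and 16.7 stand near the right end of the gene and of 24.3 and 16.2 at the second start, and open stems of 26.9 (KARPAS-45) and 19.0 (PER-117) stand left of the gene at different places.

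SMAD4, the common partner of the receptor SMADs (chromosome 18, 51030213 to 51085042, plus strand), held 2 peaks in KARPAS-45, the fewest of any member there, and 1 in PER-117, as did SKIL. The shared one sat on the only listed start, 42 bp downstream in KARPAS-45 and 9 bp in PER-117, with fold enrichments of 17.5 and 9.44, and was acetylated in both lines. The other KARPAS-45 peak had 4.58, lay 47.4 kb past the gene and was not acetylated. H3K27ac covered 23.5 kb of the window in KARPAS-45 against 2.15 kb in PER-117. In PER-117 this was the start region of 1.90 kb and 1 region of 0.25 kb. In KARPAS-45 a start region of 5.70 kb was joined by 11 others, none of which held a RUNX2 peak. The gene body of SMAD4 thus differed in H3K27ac and held no RUNX2 peak away from the start in either line.

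SMAD7, the inhibitory SMAD and itself a target of the pathway (chromosome 18, 48919853 to 48950965, minus strand), had 6 peaks in KARPAS-45 against 4 in PER-117, 2 of them shared in each. The strongest site in both lines lay inside the gene, 1786 and 1833 bp downstream of the start at 48942807, with 21.6 and 13.4. It was inside an H3K27ac region of 1.03 kb in KARPAS-45 and 5148 bp from the nearest region in PER-117. At the start at 48949333 the shared peak had 6.97 at 178 bp upstream and 6.65 at 88 bp upstream. Here the acetylation was the other way round, with the summit in a PER-117 region of 4.83 kb and 475 bp outside H3K27ac in KARPAS-45. A further KARPAS-45 start peak, with 4.17, lay 721 bp downstream. The strongest peak found in 1 line had 15.1 in KARPAS-45, 1596 bp upstream of the start at 48942807 and outside H3K27ac of both lines, and 4.06 in PER-117, 32.2 kb upstream of the gene. None of the 4 unshared KARPAS-45 peaks was acetylated in either line. H3K27ac covered 12.6 kb in KARPAS-45 against 21.5 kb in PER-117, with 8.46 kb in common. With flanks of 100 kb the order of the lines turned, and PER-117 had 1.43 kb less.

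SKI, a corepressor of SMAD complexes (chromosome 1, 2228319 to 2310213), has no listed start here, so both ends of its span were used. Its strongest KARPAS-45 peak, with 35.2 (top 1.55%), lay 728 bp outside the lower end of the span. It had no partner in PER-117, although it was inside H3K27ac of both lines. A weaker KARPAS-45 peak, with 4.003, lay 595 bp inside the same end. All 5 PER-117 peaks inside the gene had a KARPAS-45 partner. The strongest PER-117 peak, with 20.4 (top 2.98%), lay 9.04 kb from the upper end and had a KARPAS-45 partner with 16.6. Other shared sites had 17.2 and 10.5 at 19.4 kb from the upper end, and 23.6 and 5.78 at 9.06 and 9.04 kb from the lower end. At the last of these the summit was acetylated in KARPAS-45 and 581 bp from H3K27ac in PER-117. The PER-117 peak without a partner had 5.38 and lay 5.32 kb outside the span. H3K27ac covered 99.4 kb in KARPAS-45, with regions of up to 32.7 kb, and 17.0 kb in PER-117. Of the PER-117 bases 99.6% were covered in KARPAS-45 as well. The acetylated summits were 15 of 16 in KARPAS-45 and 5 of 6 in PER-117.

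SKIL, the SKI-like corepressor (chromosome 3, 170357715 to 170396849, plus strand), had 4 peaks in KARPAS-45 against 1 in PER-117. Its start carried RUNX2 in KARPAS-45 only, with 12.4 at 92 bp upstream, the strongest peak of its window in that line. The start was acetylated in both lines, by a region of 3.76 kb in KARPAS-45 and one of 2.97 kb in PER-117. The single PER-117 peak, with 5.82, lay 29.6 kb past the gene inside the span of CLDN11 and was shared, with 11.7 in KARPAS-45. It was outside H3K27ac in both lines. SKIL was thus a start with H3K27ac in both lines and a RUNX2 peak in the list of KARPAS-45 alone.

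LDLRAD4, the membrane protein that holds back receptor SMADs (chromosome 18, 13217682 to 13652754, plus strand), had the longest window, 535.1 kb. It held 44 peaks in KARPAS-45, the most of any member there, and 10 in PER-117, as many as TGFBR1 and SMAD3. It supplied 32.8% of all member peaks of KARPAS-45 and 16.4% of those of PER-117, and 56.7% and 19.0% of the acetylated bases. One site stood above the others in both lines, 674 bp downstream of the start at 13611764 in KARPAS-45 and 675 bp in PER-117, with 41.3 (top 0.825%) and 28.9 (top 0.761%). In KARPAS-45 that summit was inside an H3K27ac region of 40.2 kb. In PER-117 it lay 108 bp outside the nearest region. The next PER-117 peak had 6.51, so the window held 1 strong PER-117 site and 9 of 3.41 to 6.51.

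At the outermost LDLRAD4 starts, between 13217682 and 13218760, KARPAS-45 had start peaks of 4.20, 4.43 and 2.92, and at the start at 13277362 one of 8.57. None of these was called in PER-117. A shared peak lay 1329 and 1307 bp upstream of the outermost start, with 12.1 and 3.47. Inside the gene the shared sites had 22.5 and 4.83, 10.8 and 5.06, and 17.5 with 2 PER-117 partners of 6.20 and 3.41. The strongest KARPAS-45 peak without a partner had 23.7 (top 4.84%) and was acetylated in KARPAS-45 only, and that of PER-117 was the 6.51 peak, acetylated in both lines. Of 39 unshared KARPAS-45 peaks, 37 were acetylated in KARPAS-45, 9 of these also in PER-117 and 28 in KARPAS-45 only. Most positions of this window lay inside KARPAS-45 H3K27ac, and the share over all unshared peaks of the list was not computed. H3K27ac covered 405.6 kb in KARPAS-45 (75.8% of the window), in regions of up to 121.8 kb, and 49.9 kb in PER-117 (9.32%). All 49.9 kb of PER-117 were also covered in KARPAS-45. Only 0.110% of all windows were covered as much or more in KARPAS-45. Coverage counted only regions wholly inside a window, so a shorter window within a broad region could score low. The rank among all windows was not computed with overlapping regions. With the shortened KARPAS-45 H3K27ac list, LDLRAD4 kept 387.9 kb and SKI 90.3 kb.

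**Figure D5:**
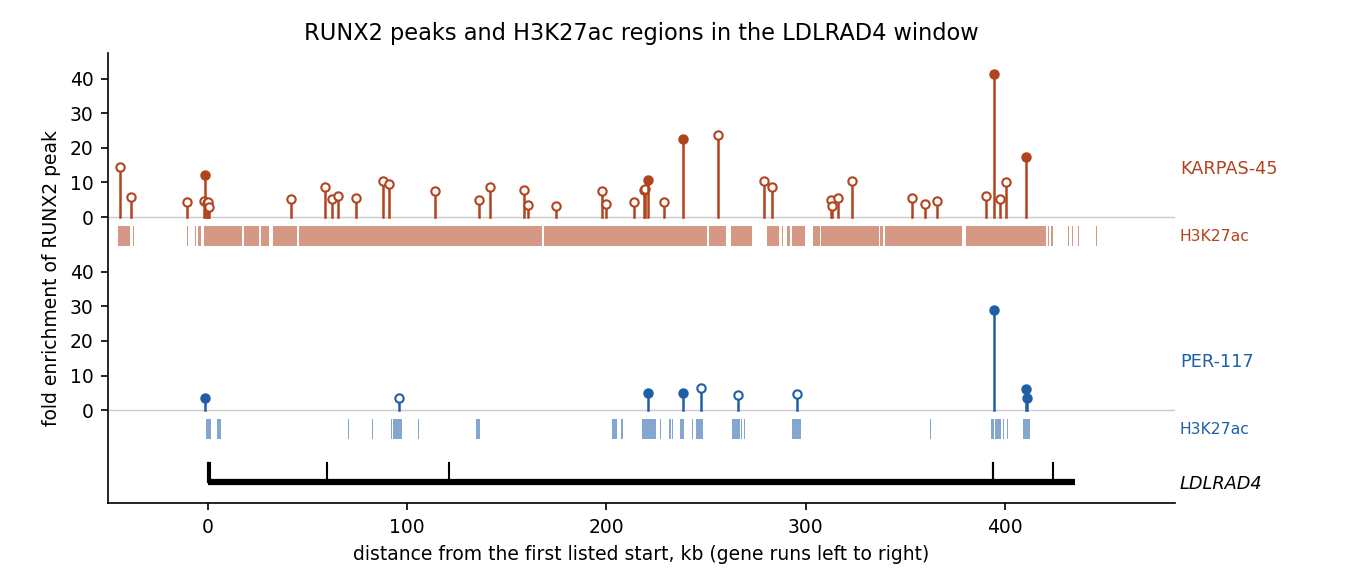
Map of the LDLRAD4 window, drawn as for TGFBR1, with fold enrichment as stem height and distance in kb from the first listed start. H3K27ac boxes run almost without a gap along the gene in KARPAS-45 and are scattered in PER-117, and the tallest stems of both lines, 41.3 and 28.9, stand at the same place near the right end.

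Other genes of the pathway were taken from a list of 46 by role. RUNX2 was within 1 kb of a start in 29 of them in KARPAS-45 (63.0%, beside 48.4% of all genes) and in 10 in PER-117 (21.7%, beside 32.4%). All 10 were bound in KARPAS-45 as well, as were 5813 of the 6480 protein-coding genes with RUNX2 at a start in PER-117. With RUNX2 peaks limited to a −log10 q of at least 10, the counts were 18 and 3, and the shares of all genes at that threshold were not computed. Among 16 regulators, 13 carried it in KARPAS-45 and 5 in both lines, with BAMBI, CTBP1 and FKBP1A among the 8 of KARPAS-45 only. The 5 in both were PPM1A, a SMAD phosphatase (17.5 and 12.8), USP15, a deubiquitinase of the receptor complex (21.1 and 12.6), TGIF1, a SMAD corepressor (9.20 and 5.06), RNF111, a ubiquitin ligase that degrades SKI and SKIL (4.20 and 3.79), and TRIM33, a SMAD4-directed ligase (9.08 and 3.19). Among 7 target genes 5 and 3 carried RUNX2: ID3 (4.48 and 4.38), ID1 (8.57 and 4.13) and JUNB (5.53 and 3.51) in both lines, and CDKN1A and ID2 in KARPAS-45 only. Among 9 receptors 6 and 1 did, with BMPR1A in both (4.86 and 5.57) and ACVR1, ACVR1B and ACVR2B among those of KARPAS-45 only. Among 10 ligand and latency genes 4 and 1 did, with the protease FURIN in both (8.11 and 3.49) and LTBP1, NRROS and TGFB2 in KARPAS-45 only. Among 4 further SMADs, SMAD1 carried it in KARPAS-45 only (9.50). USP15 and PPM1A were the only genes of the list with more than 10 in both lines. No gene of the list carried RUNX2 at a start in PER-117 only, beside 3.34% of all genes.

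The windows end at a fixed distance, so peaks near their edges depend on it. The member peak nearest to an edge on the inside was one of TGFB1 in KARPAS-45, 4 bp within it, with a fold enrichment of 4.80. The nearest outside was one near TGFBR1 in PER-117, 560 bp beyond the edge, with 7.02. At SMAD4 in KARPAS-45, the peak of 4.58 lay 2504 bp inside the edge and one of 5.80 lay 963 bp outside it. A strong site was near an edge too. The strongest TGFBR1 site, of 33.5 (KARPAS-45) and 21.8 (PER-117), lay 4240 and 4188 bp inside it. Flanks of 25 kb leave this site out. With them PER-117 kept 4 of 10 TGFBR1 peaks, and 19.4 kb of H3K27ac in place of 39.6 kb. KARPAS-45 kept 7 of 10 peaks, and 4.03 kb in place of 5.995 kb.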

How the data were processed

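Both marks were read from the authors' deposited interval lists, 1 per ChIP library, which the submitters' processing notes tie to STAR 2.4.2a, MACS2 and the build hg38. Not given in the sources used here are each tool's role and settings, the calling thresholds and the input behind each list. In the deposited lists each line carries a display score, a fold enrichment (a linear ratio), a −log10 p and a −log10 q. The score was not used. Intervals on chromosomes 1 to 22 and X were kept, and RUNX2 lines of 1 interval with several summits were joined, keeping the summit of highest fold. RUNX2 lists hold a summit, and H3K27ac lists do not.

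Gene spans came from RefSeq (GRCh38.p14), starts from a RefSeq promoter table that covers 15812 of 19974 protein-coding genes. Both span ends were used for the rest. Exons and introns were not resolved. Overlap meant 1 bp or more, a gene start meant 1 kb on each side of any listed start, and a summit was acetylated when inside an H3K27ac region. Shares have Wilson 95% intervals. Counts of reads were not analysed here. With 1 library per line and antibody, no test was made and no sample was averaged.

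The members, the list of 46 pathway genes and the marker lists were chosen with earlier results of these data known, and 1 gene each of the target and B-lineage lists is not reported here. The text names all members with their strongest, start and strongest single-line RUNX2 peaks. From each role of the list it names up to 4 genes bound at the start in both lines (highest lower fold first) and up to 3 bound in 1 line (alphabetical), and a neighbour within 1 kb of a window's strongest peak. COL15A1, B9D2, HNRNPUL1, CLDN11 and TRIM33 were named after their values were seen, and genes of chromosome 8 are not named. Interval, motif and Wilson code was tested on simulated data. Alternatives were other flanks, overlap in place of containment, stricter −log10 q, the 5000 strongest RUNX2 peaks, an H3K27ac list of equal covered length, other overlap rules and a start window of 2.5 kb. Leaving out LDLRAD4, other definitions of the start and the count of members with more H3K27ac in PER-117 were added after seeing the data. The work was done in Python 3.11.15 with pandas 2.3.3, numpy 2.4.6, matplotlib 3.10.9 and scipy 1.17.1.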

Additional observations from a re-analysis of the deposited data

How the results depend on the processing

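No paired analysis was possible because each line has 1 library per antibody. Over the window counts, shares and start counts, 70 of 86 alternative values kept within 1.5 times the main count or inside the main Wilson interval. At a RUNX2 −log10 q of 10 and above, 68 KARPAS-45 and 31 PER-117 peaks were left in the windows, and pathway genes bound at the start were 18 and 3. The 5000 strongest RUNX2 peaks per list left 19 and 14. PER-117 had 113 H3K27ac regions at −log10 q of 2 or more. Shortening the KARPAS-45 H3K27ac list, widest first, to the covered length of PER-117 left 25 regions, acetylated summits at 51.5%, 5 members with H3K27ac at the start, and 7 members with more H3K27ac in PER-117. That setting removes every KARPAS-45 region under 6.10 kb. It turned the order of the lines in H3K27ac for TGFB1 (PER-117 higher by 6.32 kb), SMAD4 (2.15 kb) and SKIL (2.97 kb). The order also turned for SMAD3 at −log10 q of 2 or more (-3.86 kb, PER-117 minus KARPAS-45) and for SMAD7 with flanks of 100 kb (-1.43 kb). For TGFBR1, TGFBR2, SMAD2, SKI and LDLRAD4 it kept its direction under every alternative run. With flanks of 25 kb the KARPAS-45 acetylated summits were 80.0%. Without LDLRAD4 the KARPAS-45 covered share was 20.4% in place of 34.8%, and its acetylated summits were 62.2%. RUNX2 at a start in PER-117 was found for 4 members with either span end, and for 4 with the outermost start only. Shared peaks kept within their intervals in every alternative, between 23.9% and 35.6% in KARPAS-45 and between 52.5% and 65.3% in PER-117. Read depth was not analysed, so how far it limits the shorter RUNX2 list of PER-117 was not tested.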
